A study of Mus musculus with 6 samples.

Results

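Depp1, Map1lc3b, Pink1, Bnip3 and Trp53inp1 are genes of autophagy, the delivery of cell contents to lysosomes, and of mitophagy, its form that removes mitochondria. They were chosen by gene symbol from the named probe sets of an array study of newborn mouse bone, with their levels in that study already known to be higher in mutant than in wild-type samples. The 5 genes were read by 7 of the 8997 probe sets on the array table, 1 each for Depp1, Pink1 and Trp53inp1 and 2 each for Map1lc3b and Bnip3. The RNA was that of the forearm bones, radii and ulnae, of newborn 129sv mice, with 3 wild-type samples and 3 from littermates labelled as del175k mutant, a deletion in Tnni2. Tnni2 encodes the fast skeletal muscle form of troponin I. The labels give neither the zygosity of the mutants nor whether a sample was a single mouse, so the spread between samples may be partly technical. Because the comparison of mutant with wild-type chose the genes, their values in it are given as a description, with no p-value.

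In autophagy a double membrane grows around its cargo, closes, and fuses with a lysosome. Proteins of the LC3 family, such as the product of Map1lc3b, are joined to a lipid of that membrane, where receptors carrying cargo bind them. Damaged mitochondria are marked by the kinase PINK1, while BNIP3 sits in the outer membrane of mitochondria and binds LC3 itself, and its gene is a well-known target of hypoxia-inducible factors (HIF). DEPP1 is a regulator of autophagy whose gene is induced by FoxO factors, and TP53INP1 is a stress protein, induced by p53, that binds LC3.

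The sequence upstream of the start of transcription is shown for the 4 genes with an entry in RefSeq's table for GRCm38.p6, since FoxO and HIF factors are known to act on genes of this kind. Trp53inp1 has no entry. Each line holds the 250 bases before the start, 5′ to 3′ on the strand of the gene. Capitals mark matches, on either strand, to the forkhead word GTAAACA, to its variant forms GTAAATA or, with another opening base, ATAAACA or as a further form ATAAATA, to the HIF core word ACGTG or its variant form GCGTG, and to the E-box CACGTG, whose strands each contain a HIF core.
Depp1 (chr6:116650434-116650683, plus strand): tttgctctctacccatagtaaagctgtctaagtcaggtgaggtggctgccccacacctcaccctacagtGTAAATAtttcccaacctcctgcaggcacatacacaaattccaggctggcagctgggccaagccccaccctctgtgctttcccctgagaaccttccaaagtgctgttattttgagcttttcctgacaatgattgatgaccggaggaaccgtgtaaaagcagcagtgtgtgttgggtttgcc
Map1lc3b (chr8:121590188-121590437, plus strand): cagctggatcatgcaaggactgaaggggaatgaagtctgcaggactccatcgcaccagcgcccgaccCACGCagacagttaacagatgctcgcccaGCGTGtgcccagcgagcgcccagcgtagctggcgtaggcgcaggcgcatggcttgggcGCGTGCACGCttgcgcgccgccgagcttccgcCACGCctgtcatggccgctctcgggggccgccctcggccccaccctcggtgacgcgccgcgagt
Pink1 (chr4:138326297-138326546, minus strand): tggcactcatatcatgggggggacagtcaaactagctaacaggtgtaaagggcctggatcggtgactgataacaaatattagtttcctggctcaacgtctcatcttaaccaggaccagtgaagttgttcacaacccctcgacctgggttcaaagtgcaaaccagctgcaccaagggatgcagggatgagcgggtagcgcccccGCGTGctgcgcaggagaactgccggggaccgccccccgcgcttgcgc
Bnip3 (chr7:138909507-138909756, minus strand): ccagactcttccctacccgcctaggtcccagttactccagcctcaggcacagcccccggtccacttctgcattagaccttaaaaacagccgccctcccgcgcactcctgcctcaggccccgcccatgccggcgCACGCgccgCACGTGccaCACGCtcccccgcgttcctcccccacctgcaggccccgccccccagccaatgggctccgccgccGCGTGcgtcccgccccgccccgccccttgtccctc

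Depp1 had 1 forkhead match, GTAAATA, at 181 to 175 bases before the start, and no HIF core. The other 3 upstream sequences held no forkhead word. The Bnip3 sequence held 5 HIF core matches, of which 2 are the opposite strands of its single E-box, 108 to 103 bases before the start. Map1lc3b also held 5 HIF core matches, all of them GCGTG, and Pink1 held 1. A forkhead word was present in 13.6% of the 32851 upstream sequences of the same length in the table, a HIF core word in 38.6%, at least 5 HIF core matches in 1.0%, and CACGTG in 6.0%. The HIF core words contain CpG, and the GC content was 72.4% for Bnip3, 69.6% for Map1lc3b, 57.2% for Pink1 and 50.8% for Depp1, against a median of 52.4% in the table. A match is a string of letters and does not show that a factor binds there.

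Intensities were deposited on a linear scale, and array medians lay between 39.6 and 48.4. The array of wild-type replicate 1 stood apart, where the median log2 deviation of its probe sets from the mean over the remaining arrays was -0.30, against 0.01 to 0.09 on the other 5. Every probe set reached 20 intensity units on at least 3 arrays, so a gene that was dimmer than 20 on all wild-type arrays is in the table only because all mutant arrays reached 20. Bone collagen genes were bright on every array, with Col1a1 at 6552 to 7807, and all 11 cartilage markers and 6 of 10 bone matrix markers were measured. Bglap, Bglap2, Runx2 and Spp1 were not among the named probe sets. RNA was taken from whole bone, in which fewer cells of a type and less RNA per cell cannot be told apart.

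The largest differences among the 5 genes were those of Trp53inp1 and Depp1, the regulators. Depp1 had intensities of 9.44, 8.37 and 12.9 in wild-type replicates 1 to 3 and of 58.4, 39.1 and 33.6 in mutant replicates 1 to 3. The lowest mutant value was 2.61 times the highest wild-type value, the widest gap among the 7 probe sets. The means were 10.2 ± 2.35 and 43.7 ± 12.99 (SD, n = 3 each), a log2 difference, mutant minus wild-type, of 2.08 ± 0.26 (moderated SE from limma), or 4.22-fold. All 3 wild-type values lay under 20, so the level filter fixed the order of the groups for Depp1. After 16 units were added to each intensity the log2 difference was 1.17.

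Trp53inp1 had intensities of 16.7, 34.3 and 21.5 in the wild-type samples and of 175.5, 137.8 and 47.8 in the mutants. The groups did not overlap, but the mutant samples were spread over 3.67-fold, with replicate 3 far below the others. The means were 24.2 ± 9.08 and 120.4 ± 65.6 (SD, n = 3 each), a log2 difference of 2.19 ± 0.46 (SE), or 4.55-fold. Leaving out mutant replicate 3 gave 2.75, and leaving out wild-type replicate 1 gave 1.95. Of all 8997 probe sets, 4 had a larger log2 difference than Trp53inp1 and 7 had a larger one than Depp1.

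**Figure D1:**
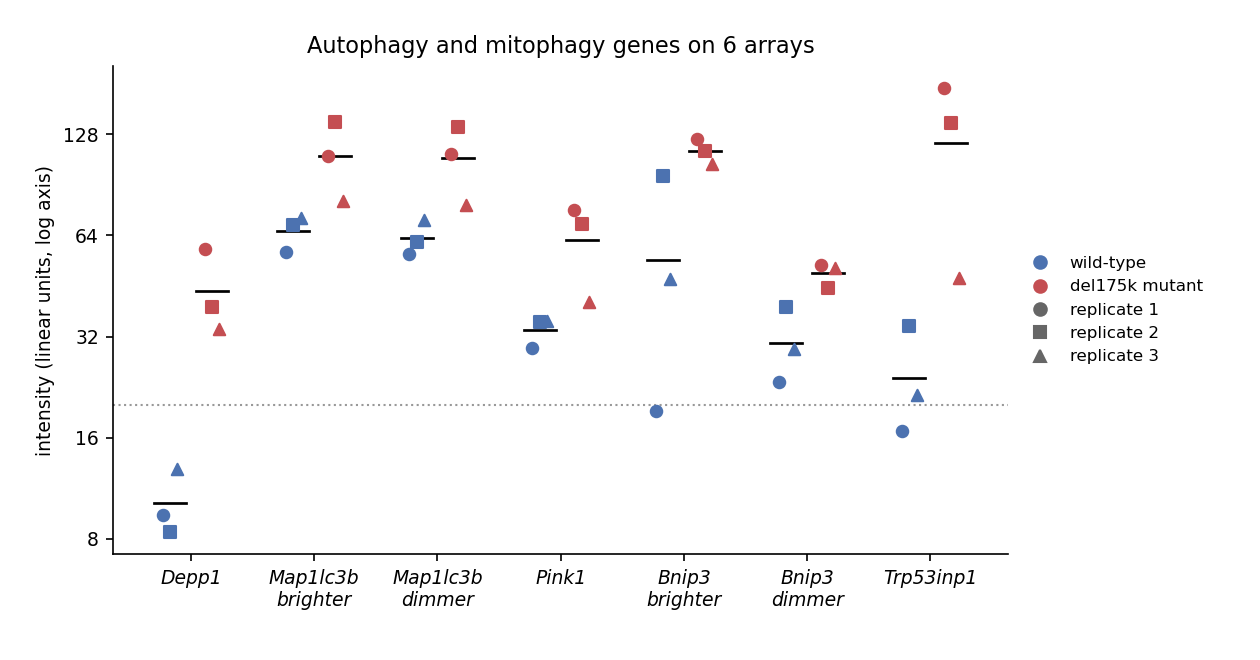
Intensity of each probe set of the 5 genes on the 6 arrays, on a log axis, with wild-type samples in blue and del175k mutants in red, symbols for replicates and black bars for the mean of each group of 3. Every mutant point lies above every wild-type point of the same probe set, and the 3 wild-type points of Depp1 lie under the dotted line at 20.

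Map1lc3b, the LC3 gene, differed by less and was read alike by both of its probe sets. The brighter probe set was at 57.2, 69.0 and 72.2 in the wild-type samples and at 110.2, 139 and 80.9 in the mutants. The other was at 56.2, 61.3 and 71.1 and at 112, 134.9 and 78.8. In both, mutant replicate 2 was the highest sample and mutant replicate 3 lay only just above the wild-type range, at 1.12 and 1.11 times the highest wild-type value. The log2 differences were 0.71 ± 0.24 and 0.76 ± 0.24 (SE), or 1.63-fold and 1.69-fold. The ratio of the probe sets stayed between 0.984 and 1.12 on the 6 arrays. The platform annotation lists largely the same transcripts for both, so they are not independent readings, and copies of near-identical sequence could not be told apart.

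Pink1, the mitophagy kinase gene, was at 29.7, 35.4 and 35.6 in the wild-type samples, and at 76.0, 69.2 and 40.5 in the mutants. Mutant replicates 1 and 2 lay well above the wild-type range, and mutant replicate 3 at 1.14 times its highest value. The means were 33.6 ± 3.36 and 61.9 ± 18.9 (SD, n = 3 each), a log2 difference of 0.84 ± 0.26 (SE), or 1.79-fold. Leaving out mutant replicate 3 gave 1.12, and leaving out mutant replicate 1 gave 0.66.

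The probe sets of Bnip3, the mitophagy receptor gene, gave the same order of the groups but different sizes. The brighter was at 19.2, 95.9 and 47.5 in the wild-type samples and at 123.9, 114.5 and 104.5 in the mutants. Here the wild-type samples were the scattered group, over 5.0-fold, while the mutants stayed within 1.19-fold. The dimmer was at 23.5, 39.3 and 29.3 and at 52.4, 44.5 and 51.2, spreads of 1.67-fold and 1.18-fold. The log2 differences were 1.36 ± 0.47 and 0.71 ± 0.23 (SE), or 2.57-fold and 1.64-fold. Wild-type replicate 1, the array with the low median, was the lowest sample on both probe sets. Without it the differences were 0.76 and 0.54, and without wild-type replicate 2, the highest wild-type sample, they were 1.92 and 0.91.

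The annotation lists the same transcripts for both Bnip3 probe sets, yet they did not keep a fixed ratio. The brighter over the dimmer was 0.817, 2.44 and 1.62 in the wild-type samples and 2.36, 2.57 and 2.04 in the mutants. The array on which the ratio fell below 1 was wild-type replicate 1. Which probe set follows the Bnip3 transcript more closely was not tested, and here too copies of near-identical sequence could not be told apart.

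All 7 probe sets thus had mutant values above all wild-type values, an order shared by 9.18% of all probe sets, and this order is what the genes were chosen with. With each of the 6 arrays left out in turn, the lowest log2 difference was 1.85 for Depp1, 1.81 for Trp53inp1, 0.66 for Pink1, 0.52 and 0.59 for Map1lc3b, and 0.76 and 0.54 for Bnip3. The mutant samples did not rank alike across the genes. Relative to the wild-type mean of each probe set, on the log2 scale, mutant replicate 3 stood at 1.24 and 0.77 for Bnip3, close to the 1.48 and 0.80 of mutant replicate 1. It stood at 0.28 for Pink1, where replicate 1 was at 1.19, and at 0.30 and 0.33 for Map1lc3b, where replicate 1 was at 0.74 and 0.84. For Trp53inp1 it stood at 1.05 against 2.93, and for Depp1 at 1.74 against 2.54.

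**Figure D2:**
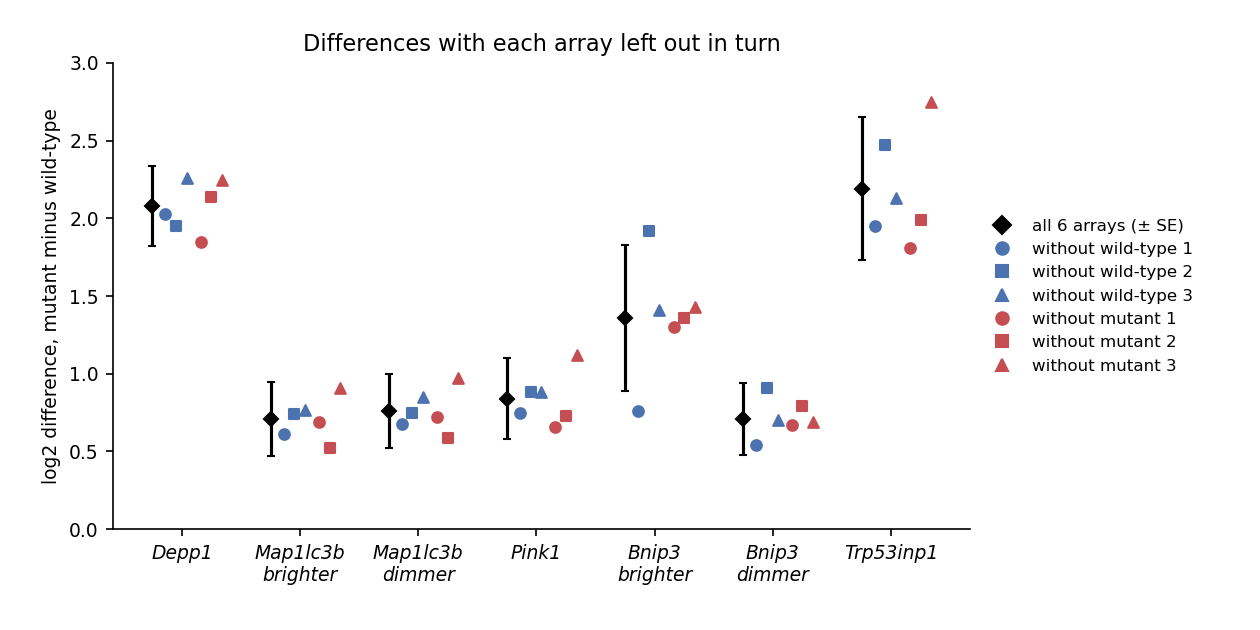
Log2 difference, mutant minus wild-type, of each probe set over all 6 arrays (black, ± moderated SE) and with each array left out in turn (blue without a wild-type array, red without a mutant array). The brighter Bnip3 probe set moves most, between 0.76 without wild-type replicate 1 and 1.92 without wild-type replicate 2.

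The genes with the most similar profiles were found by the root-mean-square distance between log2 values over the 6 arrays, each gene centred on its own mean, among the brightest probe sets of named genes. Map1lc3b and Pink1 lay close to each other, at 0.17 and 0.152 for the Map1lc3b probe sets, and Pink1 was among the 3 nearest genes of the dimmer one. Nearest to the brighter Map1lc3b probe set were Acvr1b, an activin receptor gene (0.095), the kinase gene Pdpk1 and the cartilage matrix gene Chad (0.124 each). Nearest to the dimmer were the FoxO factor gene Foxo1 (0.131), Acvr1b (0.132) and then Pink1. Nearest to Pink1 were Snx33 (0.066), the anti-apoptotic Bcl2l1 (0.107) and Mylip (0.11).

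Trp53inp1 lay nearest to Tsc22d3, a glucocorticoid-induced gene, at a distance of 0.095, then to Sesn1 (0.233) and Ddit4 (0.242), which encode inhibitors of the growth kinase complex mTORC1. Tsc22d3 was at 18.6, 35.1 and 24.5 in the wild-type and at 166, 155 and 49.6 in the mutants, with the same low mutant replicate 3 as Trp53inp1. Depp1 lay nearest to Ddit4 (0.354), Pik3ip1 (0.472) and Hif3a (0.482), its nearest gene being farther off than that of any other of the 7 probe sets. The brighter Bnip3 probe set lay nearest to Ankrd28 (0.28), Clk1 (0.329) and the HIF prolyl hydroxylase gene Egln3 (0.334). The dimmer lay nearest to Atf2 (0.062), Zfp330 (0.068) and Zfp871 (0.08), so the probe sets of Bnip3 had no near gene in common. These distances rank genes that differ between the groups in a similar way and carry no test. All wild-type values of Pik3ip1, Hif3a and Acvr1b lay under 20, as for Depp1, so the level filter fixed the order of their groups.

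Among the closest relatives of the 5 genes, the LC3 and GABARAP family was divided. Gabarapl1, a family member that also joins the growing membrane, was at 22.5, 36.0 and 23.1 in the wild-type and at 89.8, 70.5 and 40.4 in the mutants, with no overlap. Its log2 difference was 1.26 ± 0.32 (SE), which missed the threshold (adjusted p = 0.54, limma, all probe sets). Map1lc3a was at -0.17 ± 0.20, Gabarap at -0.08 ± 0.22 and Gabarapl2 at 0.02 ± 0.21, each with overlapping groups. For Bnip3l, the other BNIP3-type receptor gene, the brighter of 2 probe sets was at 71.98, 117.5 and 90.2 and at 163, 111.1 and 126. Its log2 difference was 0.53 ± 0.25 with overlap (limma adjusted p = 0.686), and the other probe set is not described here. Trp53inp2 was at 0.09 ± 0.36, against the 2.19 of Trp53inp1. Differences between relatives were not tested, because Map1lc3b, Bnip3 and Trp53inp1 were chosen for theirs.

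**Figure D3:**
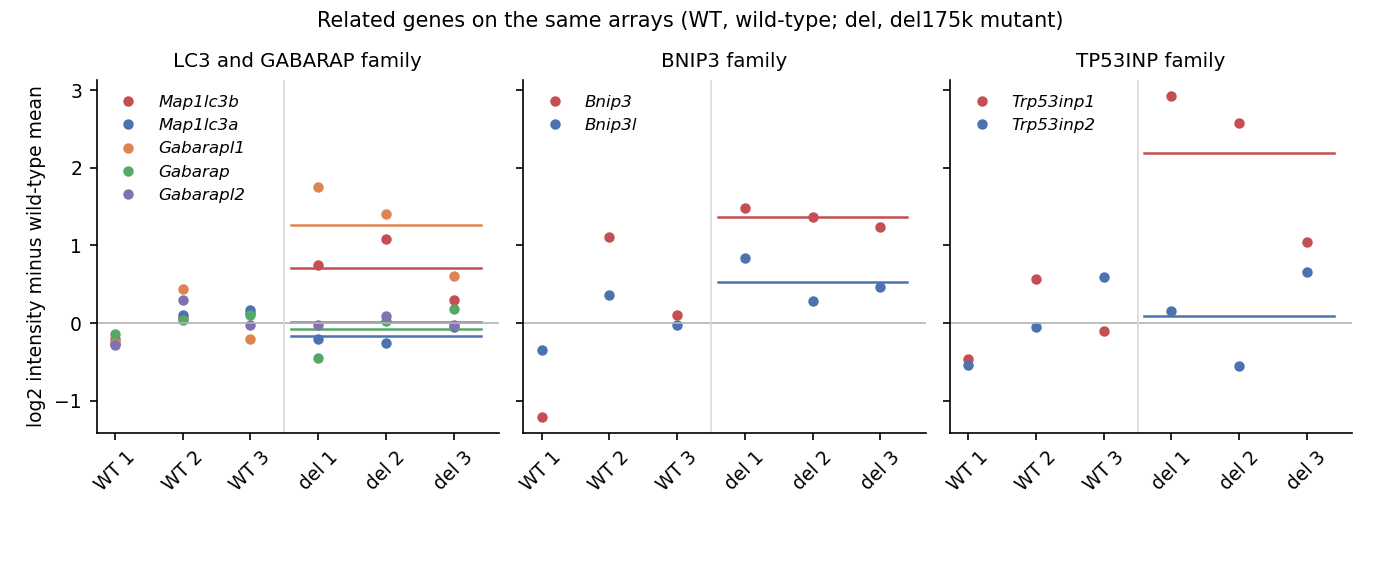
Log2 intensity relative to the wild-type mean of each gene on the 6 arrays, for the LC3 and GABARAP, BNIP3 and TP53INP families (brightest probe set per gene), with a line at the mutant mean. Map1lc3b and Gabarapl1 lie above 0 on all mutant arrays, while the mutant means of Map1lc3a, Gabarap and Gabarapl2 lie between -0.17 and 0.02.

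Beyond the 5 genes, 128 other autophagy and mitophagy genes were listed by their step, with earlier results of these data known. Of them 83 had a named probe set. Limma called 0 of the 83 higher and 0 lower in the mutants at an adjusted p of 0.05, as it called 0% of all probe sets. At an unadjusted p under 0.05, 11 of the 83 (13.3%) were higher and 0 lower, against 5.74% and 1.7% of all probe sets. Their groups did not overlap in 15 genes with mutants higher (18.1%, against 9.18%) and in 1 with mutants lower, against 3.89%. For 2 of the 15, Uvrag and Atg2b, all wild-type values lay under 20 and the level filter fixed that order. The median log2 difference of the 83 genes was 0.19, against 0.045 over all probe sets.

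These counts moved with single arrays. Leaving out wild-type replicate 1, 2 or 3 turned the 11 into 7, 13 or 7, while the share of all probe sets higher at that p was 3.2%, 8.99% or 5.68%. Leaving out mutant replicate 1, 2 or 3 gave 3, 7 or 12, against 2.61%, 3.26% or 5.75% of all probe sets. The 3 genes without mutant replicate 1 were 3.61% of the 83, near the share over all probe sets. Higher means were found in 63 of the 83 genes with all arrays (75.9%, against 56.7% of all probe sets), 52 after quantile normalization (62.7%, against 47.6%), 53 after median centring (63.9%, against 48.3%), 46 with array weights (55.4%, against 46.2%) and 48 without wild-type replicate 1 (57.8%, against 44.7%). The median log2 difference of the 83 was 0.12, 0.14, 0.08 and 0.07 in those 4 other fits, where that of all probe sets was -0.019, -0.012, -0.027 and -0.033. Without wild-type replicate 1 the groups did not overlap in 16 genes with mutants higher, against 10.7% of all probe sets, and in 6 with mutants lower, against 12.5%.

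Cargo receptors held 3 of the 11 genes, out of 7 measured (42.9%, against 5.74% of all probe sets). Without mutant replicate 1 that count was 0, against 2.61% of all probe sets. Calcoco1, a receptor for pieces of the endoplasmic reticulum, was at 58.4, 86.8 and 54.9 in the wild-type and at 154.6, 119.4 and 87.7 in the mutants, a log2 difference of 0.85 ± 0.27. Nbr1, a receptor for ubiquitin-marked cargo, was at 0.76 ± 0.25 with no overlap. Sqstm1, which encodes the receptor p62, was at 142, 223 and 166.6 and at 358.6, 337.8 and 178.3, with mutant replicate 3 inside the wild-type range (0.68 ± 0.30). The 7 measured receptors had 6 higher means (85.7%, against 56.7% of all probe sets), and their adjusted p-values in limma were 0.595 or above.

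Early steps had mostly higher means in the mutants, and 0 of their genes passed. Zfyve1, which encodes a marker of the membrane site where autophagosomes form, had the smallest p of the 83 genes, from 30.1, 35.8 and 29.8 to 67.9, 51.4 and 54.6. Its log2 difference was 0.86 ± 0.20 (limma adjusted p = 0.477). In the same list of 9 membrane supply genes 8 had higher means (88.9%, against 56.7% of all probe sets). Among them were Wdr45 (0.66 ± 0.29) and the lipid transfer gene Atg2b (0.43 ± 0.22). The initiation kinase genes Ulk1 (0.56 ± 0.26) and Ulk2 (0.36 ± 0.28) and their partner Atg13 (0.62 ± 0.31) all had higher means with overlapping groups. Of 7 genes of the phosphatidylinositol 3-kinase complex 5 had higher means (71.4%). That count was 3 with array weights or without wild-type replicate 1, against 46.2% and 44.7% of all probe sets. Uvrag was at 0.56 ± 0.26, Ambra1 at 0.24 ± 0.25 and Nrbf2 at -0.15 ± 0.20. The 3 measured conjugation enzymes differed by about their errors or less, with Atg16l1 at 0.22 ± 0.20, Atg4b at 0.08 ± 0.20 and Atg7 at -0.05 ± 0.20.

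Nutrient signalling and late steps also had mostly higher means, and here too 0 genes passed. Of 13 genes of nutrient signalling 11 had higher means (84.6%, against 56.7% of all probe sets). That count was 7 with array weights and 8 without wild-type replicate 1, against 46.2% and 44.7% of all probe sets. At an unadjusted p under 0.05, 3 of the 13 were higher (23.1%, against 5.74%), and 0 without mutant replicate 1. The 3 genes were Tsc1, an inhibitor of mTORC1 signalling (0.62 ± 0.22), Flcn (0.53 ± 0.21) and its partner Fnip1 (0.62 ± 0.26). Their limma adjusted p-values were 0.638, 0.667 and 0.667. Dram2, a lysosomal membrane protein gene, was at 24.4, 41.1 and 38.7 and at 70.6, 57.4 and 57.8, with no overlap (0.86 ± 0.24, adjusted p = 0.587). Of the 11 genes of fusion with lysosomes 9 had higher means (81.8%), and 7 after quantile normalization, against 56.7% and 47.6% of all probe sets. Their median log2 difference was 0.27, with the tethering gene Vps39 at 0.54 ± 0.27, Plekhm1 at 0.41 ± 0.21 and Vamp8 at 0.34 ± 0.23.

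Mitophagy genes other than Pink1 and Bnip3 had a median difference near that of all probe sets. Of 24 measured, 15 had higher means (62.5%, against 56.7% of all probe sets), and the median log2 difference was 0.05 against 0.045. At an unadjusted p under 0.05, 1 was higher (4.2%, against 5.74%). That gene was Mff, which encodes a recruiter of the fission machinery to mitochondria (0.49 ± 0.21, limma adjusted p = 0.667). Beside Bnip3l, the receptor genes Bcl2l13 and Phb2 were at 0.27 ± 0.24 and 0.10 ± 0.22. Among 10 PINK1 partners, the import pore genes Tomm20 and Tomm40 were at 0.30 ± 0.23 and -0.24 ± 0.19 and the channel gene Vdac1 at 0.24 ± 0.28. The fusion genes Mfn1 and Opa1 were at 0.32 ± 0.21 and 0.34 ± 0.24. Fis1, named after its values were seen, was the gene with every mutant value under every wild-type value, at 115.9, 117.3 and 116.5 against 107.6, 96.3 and 89.5 (-0.26 ± 0.19). By comparison the 59 other autophagy genes had 48 higher means (81.4%) and a median of 0.23.

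**Figure D4:**
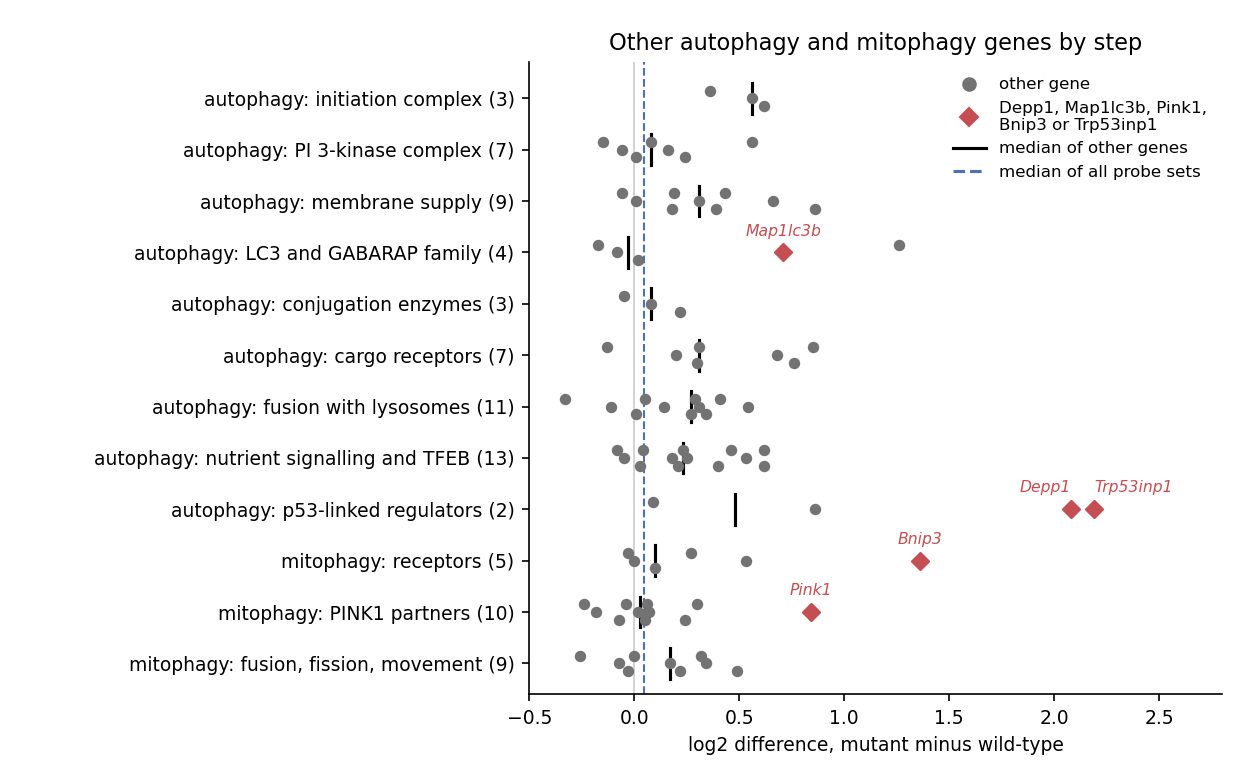
Log2 difference, mutant minus wild-type, of the 83 other autophagy and mitophagy genes by step (grey, number measured in brackets; some genes stand in more than 1 list), with the median of each step in black, the median of all probe sets dashed, and the 5 genes as red diamonds. The 5 genes and Gabarapl1 lie to the right of most other genes, which stay between -0.33 and 0.86. Each gene is drawn from its brightest probe set, so Bnip3 is at 1.36 and not at the 0.71 of its dimmer probe set.

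Genes known as targets of the factors that regulate the 5 genes were listed too, with earlier results of these data known. All 14 measured FoxO factors and targets, of 18 listed, had higher means (100%, against 56.7% of all probe sets). Their median log2 difference was 0.70, against 0.045. At an unadjusted p under 0.05, 8 of them were higher (57.1%, against 5.74%). That count was 7 to 10 with any single array left out. Ccng2, for cyclin G2, was at 1.08 ± 0.21 (limma adjusted p = 0.42). Its wild-type values all lay under 20, so the level filter fixed the order of its groups. The cell cycle inhibitor gene Cdkn1b was at 0.67 ± 0.19 and Sesn1 at 1.94 ± 0.54 (limma adjusted p = 0.571 each). Foxo1, named above for its profile, was at 0.87 ± 0.27, from 17.7, 23.4 and 29.3 to 46.0, 52.4 and 30.6. With all arrays 0 of the 14 passed, and 1 passed without mutant replicate 3.

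Of 13 measured HIF targets, of 20 listed, 8 had higher means (61.5%, against 56.7% of all probe sets) and 5 lower, with a median of 0.19. At an unadjusted p under 0.05, 3 were higher (23.1%, against 5.74%) and 0 lower, against 1.7%. With array weights 3 were higher and 3 lower, against 616 and 796 of all 8997 probe sets. The median was -0.06 when arrays were weighted and 0.02 in the absence of wild-type replicate 1. With all arrays 0 of the 13 passed, and 1 passed with array weights or when mutant replicate 3 was left out. Ddit4 was at 2.14 ± 0.33 (limma adjusted p = 0.231), Egln3 at 1.41 ± 0.40 and Ndrg1 at 0.94 ± 0.34. Of 17 p53 pathway genes 5 were measured, of which 4 had higher means (80%, against 56.7% of all probe sets). That count was 2 with array weights or without wild-type replicate 1. At an unadjusted p under 0.05, 0 of the 5 were higher and 0 lower, against 5.74% and 1.7% of all probe sets. Btg2 was at 0.52 ± 0.36, Phlda3 at -0.25 ± 0.20 and Ccng1 at 0.40 ± 0.37. The median of the 5 genes, 0.27, was -0.05 when wild-type replicate 1 was left out. Sesn1 and Ddit4 were listed under FoxO and HIF only, and were not counted among the p53 genes.

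Markers of other cells also differed between the samples. The summed intensity of the 4 measured osteoclast markers of 9 was 594.2 to 1028 in the wild-type and 1177 to 1690 in the mutants, without overlap, led by Ctsk (log2 difference 1.16), Mmp9 (0.78) and Acp5 (0.72). None of these markers passed (smallest limma adjusted p = 0.59). The 6 measured epidermal markers of 12 summed to 1798, 1248 and 47.3 in the wild-type and to 75.3, 460.4 and 51.3 in the mutants. The 3 measured erythroid markers of 10 summed to 133.5 to 288.9 and to 157 to 515, highest on mutant replicate 1. The 11 fast muscle markers of 14 summed to 4238 to 8663 and to 5464 to 7082, and the 9 slow muscle markers of 10 to 538 to 1002 and to 873 to 1158. The 5 myeloid markers of 10 summed to 170.3 to 283.8 and to 193 to 263.5, the 6 endothelial of 8 to 182.6 to 284 and to 228 to 270.2, and the 2 adipocyte of 9 to 40.0 to 59.4 and to 45.9 to 61.0. No measured marker was at 0. The part of these cells in the levels of the 5 genes was not tested.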

How the data were processed

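Whole-transcript arrays (Affymetrix chemistry, per the labels' protocols) measured RNA of 3 wild-type and 3 del175k mutant samples. The authors deposited linear intensities, with 8997 probe sets per array. How they corrected background, summarised probes and scaled the arrays is not given in the sources used here. Gene names came from the platform annotation of 2016, in which 6398 probe sets have 1 symbol, 576 have several and 2023 have none. Those with 1 symbol were named. Their symbols were checked against RefSeq (GRCm38.p6), and 0 needed updating.

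Intensities were converted to log2 without normalization or filter. A model of 2 group means was fitted to all probe sets with limma 3.58.1 (lmFit, eBayes; R 4.3.3), two-sided, with Benjamini-Hochberg adjustment and a threshold of 0.05. Listed genes were read from their brightest probe set. In 20 simulated data sets of this comparison, 200 of 8997 probe sets were changed. There 38.6% of 2-fold and 88.7% of 4-fold changes were recovered, and 4.4% of calls were false. The simulated noise was independent between probe sets and held no shifts of whole arrays, so these shares may not hold for the real arrays. On the real arrays Ddit4, at 4.4-fold, was not called (limma adjusted p = 0.231).

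The 5 genes and the lists were chosen with earlier results of these data known. Named from each list were genes that passed or the 3 of smallest unadjusted p, plus family members of the 5 genes; marker lists are given as sums. For each probe set of the 5 genes the 3 genes of nearest profile were named, leaving out predicted genes, clones and small RNAs. Alternatives were array weights, a replicate block, quantile normalization or median centring, no probe sets of the dimmest 25%, robust variances with an intensity trend, 16 added units, the mean over a gene's probe sets, a threshold of 0.1 and leaving out each array. The number of arrays limits the precision. Tables and plots were made in Python 3.11.15 (pandas 2.3.3, matplotlib 3.10.9).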

Additional observations from a re-analysis of the deposited data

How the results depend on the processing

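The direction of the 7 probe sets of Depp1, Map1lc3b, Pink1, Bnip3 and Trp53inp1 is the one the genes were chosen with, and leaving out an array cannot turn it where the groups do not overlap. With 16 units added to each intensity, which shrinks differences of dim probe sets, Depp1 was at 1.17. Averaging the probe sets of Bnip3 gave 1.04, against 0.71 for the dimmer by itself. Depp1 was among the dimmest 25% of probe sets and had no value without them. With single arrays left out the log2 difference ranged from 1.85 to 2.26 for Depp1, 1.81 to 2.75 for Trp53inp1, 0.66 to 1.12 for Pink1, 0.52 to 0.91 and 0.59 to 0.97 for Map1lc3b, and 0.76 to 1.92 and 0.54 to 0.91 for Bnip3. Samples of equal replicate number showed correlations of their deviations from the group means of -0.107, -0.026 and 0.315, and wild-type replicate 1 correlated best with mutant replicate 2 (0.338), so the numbers were not taken as pairs. Both groups hold replicates 1 to 3, so the replicate number as a block cannot change the differences (2.08 for Depp1). With that block the count of calls over all probe sets stayed at 0. Over all probe sets limma called 0 with all arrays (669 at an unadjusted p under 0.05, 516 higher and 153 lower), 4 with array weights, and 0 to 15 with single arrays left out, the 15 without mutant replicate 3; the cause was not tested. The unadjusted split was 532 higher and 322 lower after quantile normalization and 570 and 294 after median centring. More probe sets were lower than higher when arrays were weighted (616 higher, 796 lower) and in the absence of wild-type replicate 1 (288 higher, 307 lower). Among the 83 other autophagy and mitophagy genes 0 were called under every alternative. Folds of genes under 20 intensity units depend on how background was handled, which the sources used here do not give.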

Other observations

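Bnip3 is an outlying relative of the BCL2 family, which sets the threshold of apoptosis. Of 18 listed family genes 7 had a named probe set. Higher means in the mutants were found in 4 (57.1%, near the 56.7% of all probe sets) and lower means in 3. Bmf, a pro-apoptotic BH3-only gene, was at 23.9, 27.1 and 22.7 in the wild-type and at 55.3, 51.8 and 48.9 in the mutants, a log2 difference of 1.09 ± 0.19 (limma adjusted p = 0.38). Bcl2l1, for the anti-apoptotic BCL-XL, was at 35.3, 42.3 and 47.9 and at 107, 80.3 and 47.8, so mutant replicate 3 lay inside the wild-type range (0.84 ± 0.30, adjusted p = 0.638). Mcl1 was at 0.47 ± 0.36. Limma called 0 of the 7, and 2 were higher at an unadjusted p under 0.05 (28.6%, against 5.74% of all probe sets).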
